A study of Macaca mulatta with 51 samples.

Results

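LRP6 and other genes of the Wnt signalling pathway were followed in adipose tissue (AT) and skeletal muscle (SM) of diet-induced obese (DIO) rhesus macaques before, during and after treatment with FGF21, a circulating hormone of energy metabolism. The list held 10 genes chosen by their symbols in the gene count table: the co-receptors LRP5 and LRP6, the receptor FZD4, the signal transducer CTNNB1, the feedback inhibitor AXIN2, the transcription factor TCF7L2, and the secreted proteins SFRP1, SFRP2, SFRP4 and DKK3. Of the 10, 8 were measured among the 16033 genes of the table, and LRP5 and TCF7L2 were not analysed here. All 8 were expressed highly enough to be tested in both tissues. LRP6 was itself picked for its rise in SM at washout, so that its SM washout values are given as a description, with no test.

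In the canonical Wnt pathway, Wnt ligands bridge a Frizzled receptor and the co-receptor LRP5 or LRP6 at the cell surface. The receptor complex then stops a cytoplasmic destruction complex of AXIN, APC and GSK3 from marking β-catenin, the product of CTNNB1, for breakdown, and β-catenin enters the nucleus and acts with factors such as TCF7L2. SFRP proteins bind Wnt ligands outside the cell, and some Dickkopf proteins, such as DKK1, bind the LRP co-receptors. In AT the pathway is known for holding back the formation of adipocytes from progenitor cells, and in SM for its part in the differentiation of satellite cells during repair.

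The biopsies came from adult obese, non-diabetic males and ovariectomized females, all fed a high-fat, high-sucrose diet, which received native human FGF21 by daily subcutaneous injection in rising doses; a single animal was held below the top dose. Punches of subcutaneous abdominal AT and of gastrocnemius SM were taken from the same animals before treatment (pre-treatment), at its end (post-treatment) and after a period without treatment (washout). There was no untreated group, so that time and treatment cannot be told apart. For AT, 10 animals gave 10 libraries before treatment, 9 at its end and 8 at washout, and for SM, 8 animals gave 6, 8 and 7.

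Libraries held between 14455195 and 23940980 counts each (median 18578869). Defining markers separated the tissues. ADIPOQ, which encodes the adipocyte hormone adiponectin, lay between 1166 and 4604 CPM (read counts scaled to a common library size) in AT and between 0.874 and 127.9 CPM in SM, and the muscle actin ACTA1 between 0.992 and 16.0 CPM in AT and between 7100.1 and 42331 CPM in SM. The library identifiers in the labels fall into 3 number series, here called first, middle and last; the labels do not say what they stand for. They are unevenly spread, with 4 of 8 AT washout libraries, 7 of 9 AT post-treatment libraries and 6 of 7 SM washout libraries in the last series but only 3 of 8 SM post-treatment libraries. A biopsy mixes cell types, so that fewer cells of a type and less RNA per cell cannot be told apart in any value below.

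LRP6 (ENSG00000281324) fell in AT between post-treatment and washout. Pre-treatment, LRP6 lay between 50.2 and 153.4 CPM in AT, with a median of 89.5 CPM over 10 libraries. Post-treatment, the lowest library held 44.9 CPM, the median was 67.9 CPM and the highest library held 124.4 CPM. At washout, the levels ran from 13.9 to 67.8 CPM with a median of 19.8 CPM, and 7 of the 8 libraries lay below every pre-treatment and every post-treatment library. The exception was the washout library of animal 26292, the only AT library of the first identifier series.

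The fall of LRP6 in AT varied in size between animals, with changes in log2 CPM of -3.15 to -0.57 from post-treatment to washout. From post-treatment to washout, the log2 fold change was -1.70, with an SE of 0.27 and an adjusted p of 1.24e-04 by the edgeR test over 13367 genes. LRP6 was lower in 8 of 8 animals. From pre-treatment to washout, it was -1.89 (SE 0.26, adjusted p = 3.90e-05), again lower in 8 of 8 animals. Each comparison passed the test with any of the 10 animals left out, with log2 fold changes between -1.86 and -1.5 and between -2.00 and -1.78. Here and below, a gene is called differentially expressed (DE) when it reaches an adjusted p below 0.05 together with a log2 change larger than 0.26 up or down. Post-treatment and pre-treatment did not separate, with a log2 fold change of -0.19 (95% interval -0.67 to 0.29, adjusted p = 0.613) and lower levels in 5 of 9 animals.

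The AT level of LRP6 at washout also moved with the identifier series. The 4 last-series libraries held 13.9 to 17.5 CPM, the 3 middle-series libraries 22.1 to 32.4 CPM and the first-series library 67.8 CPM. Within the last series alone, LRP6 lay between 50.2 and 153.4 CPM in 7 pre-treatment libraries and between 44.9 and 101.9 CPM in 7 post-treatment libraries, above all 4 washout libraries. In a fit of the last series alone, the log2 fold change at washout was -1.92 (SE 0.31, adjusted p = 0.00376) compared to post-treatment and -2.32 (SE 0.32, adjusted p = 0.00251) compared to pre-treatment, both from edgeR. The fall was thus as large within the last series as across all libraries. Of the 4 washout libraries there, only those of animals 20261, 21189 and 21866 had an earlier library of the same animal in that series.

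In SM, LRP6 moved the opposite way at washout. It held between 4.88 and 11.6 CPM pre-treatment, with a median of 6.93 CPM over 6 libraries. Post-treatment, the 8 libraries ran from 3.89 to 14.8 CPM with a median of 7.44 CPM. At washout, the 7 libraries ran from 19.8 to 30.1 CPM with a median of 24.8 CPM, so that none overlapped with any earlier SM library. This pattern is the one LRP6 was picked for. Over all SM genes tested, 0.705% had washout libraries that did not overlap with the post-treatment libraries, and 1.51% had washout libraries that did not overlap with the pre-treatment libraries.

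**Figure D1:**
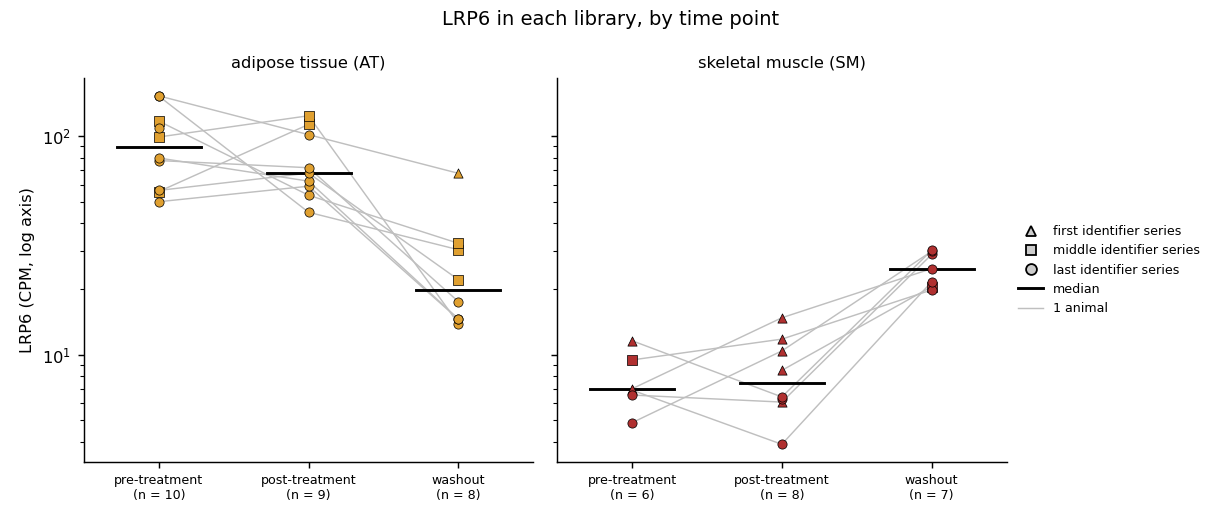
LRP6 level in CPM (log axis) in each library of AT (left) and SM (right) at the 3 time points, with grey lines joining the libraries of an animal, black bars at the median, and symbols for the library identifier series. In AT, 7 of 8 washout libraries lie below all earlier libraries, and in SM all 7 washout libraries, at 19.8 to 30.1 CPM, lie above all earlier ones.

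As a description, the log2 fold change of LRP6 in SM at washout was 1.57 (SE 0.25) compared to post-treatment, with LRP6 higher in 7 of 7 animals. Compared to pre-treatment it was 1.73 (SE 0.26), with LRP6 higher in 6 of 6 animals. Within the last identifier series, 6 washout libraries at 19.8 to 30.1 CPM stood against 3 post-treatment libraries at 3.89 to 6.41 CPM and 2 pre-treatment libraries at 4.88 and 6.54 CPM. The comparison of post-treatment with pre-treatment, which the choice of LRP6 did not use, gave a log2 fold change of 0.16 (95% interval -0.35 to 0.68, adjusted p = 0.9996 from edgeR), with 3 of 6 animals higher.

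Erythroid markers were also high in most SM libraries at washout. The summed level of the erythroid list had a median of 38.5 CPM pre-treatment (8.25 to 126.7), 55.4 CPM post-treatment (16.5 to 4278) and 839.3 CPM at washout (63.4 to 1628). Of its 4 genes, HBA1 was at 0 in all 21 SM libraries, and none of the other 3 was DE in SM. On log2 scales, LRP6 had a Pearson r of 0.722 with the erythroid sum over the 21 SM libraries, the highest of the marker lists. Its r with the myofiber sum was 0.633. The post-treatment library of animal 22130 held the highest erythroid sum, 4278 CPM, and the highest post-treatment LRP6 level, 14.8 CPM. The washout library of animal 21189 held the lowest washout erythroid sum, 63.4 CPM, and 21.6 CPM of LRP6. The myofiber sum ran from 138925 to 232323 CPM pre-treatment, from 53818 to 262547 CPM post-treatment and from 178888 to 254184 CPM at washout, with 0 of 8 markers DE by edgeR. The part of these markers in the LRP6 levels was not tested.

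To place the 2 tissues on a common scale, all 48 libraries were also normalized together. On that scale, the median LRP6 levels came in the order AT pre-treatment (70.7 CPM), AT post-treatment (52.8 CPM), SM washout (33.9 CPM), AT washout (15.6 CPM), SM post-treatment (10.3 CPM) and SM pre-treatment (9.59 CPM). Neighbours in this order overlapped in every case: SM washout, at 28.3 to 44.8 CPM, overlapped with AT post-treatment, at 35.3 to 96.1 CPM, and with AT washout, at 10.97 to 52.4 CPM. Post-treatment, LRP6 was lower in SM than in AT by a log2 fold change of -2.33 (SE 0.25, edgeR over 12322 genes). This too is a description, since SM post-treatment libraries entered the choice of LRP6. At washout the order of the medians was reversed. As a description, the change from pre-treatment to washout was higher in SM than in AT by 3.70 on the log2 scale (SE 0.37).

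The 5 genes whose log2 CPM was most like that of LRP6 over the 27 AT libraries, by Pearson's r among 12138 other genes, were RNF150 (r = 0.974), ZNF106 (0.964), MTR (0.955), DDR2 (0.951) and PREPL (0.951). Over the 21 SM libraries they were MED13L (r = 0.965), BTBD7 (0.958), DDI2 (0.951), HIPK3 (0.950) and PHF20L1 (0.950), among 11143 other genes. Libraries of an animal and a time point share their source, so that these values are descriptions. No other gene of the list came near these values: FZD4 had the highest r in AT, 0.580, and was in place 943. Besides LRP6, 7 genes were DE and higher in SM at washout than pre-treatment, and 7 of 7 were DE and lower in AT in that comparison, where 7.96% of all genes were DE and lower. Compared to post-treatment, 16 of the 21 such genes tested in AT were DE and lower, where 17.8% of all genes were.

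The receptor FZD4 (ENSG00000174804) lay between 712.6 and 1251 CPM in AT pre-treatment (median 985.7 CPM), between 364.8 and 1367 CPM post-treatment (median 670.6 CPM) and between 436.6 and 1022 CPM at washout (median 677.6 CPM). Of the 9 post-treatment libraries, 5 were below every pre-treatment library, while that of animal 20456 was above all of them. The log2 fold change was -0.52 (95% interval -0.89 to -0.14, adjusted p = 0.0685 from edgeR) post-treatment and -0.38 (adjusted p = 0.186) at washout compared to pre-treatment, lower in 6 of 9 and 7 of 8 animals. Neither passed the test. Post-treatment, the lower FZD4 levels came with lower adipocyte markers. Of the 7 listed, 4 were measured, and 2 of these 4 were DE and lower, beside 8.49% of all genes. At washout compared to pre-treatment 0 of the 4 were DE, with a median log2 change of -0.41 in both comparisons. Their summed level was 15564 to 32426 CPM pre-treatment and 9439 to 28012 CPM post-treatment, with none of the 4 at 0 in AT. Their part in the result was not tested.

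CTNNB1 (ENSG00000168036), which encodes β-catenin, varied over a narrow range in AT. Its level ranged from 340.5 to 521.8 CPM pre-treatment, from 303.4 to 452.1 CPM post-treatment and from 349.1 to 667.8 CPM at washout, with medians of 408.0, 400.9 and 448.3 CPM. No comparison in AT passed the test, with log2 fold changes of -0.13 (95% interval -0.37 to 0.12) post-treatment, 0.24 (-0.02 to 0.50) from post-treatment to washout and 0.11 (-0.15 to 0.37) at washout compared to pre-treatment.

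AXIN2 (ENSG00000168646), a scaffold of the destruction complex that is also a transcriptional target of the pathway, rose in AT from post-treatment to washout. Its lowest, median and highest levels were 3.65, 13.1 and 34.1 CPM pre-treatment, 6.88, 9.20 and 21.1 CPM post-treatment, and 14.1, 17.99 and 24.2 CPM at washout. The groups overlapped, and 3 of 8 washout libraries were above every post-treatment library. The log2 fold change was 0.68 (SE 0.25 and adjusted p = 0.0365, edgeR), with AXIN2 higher in 7 of 8 animals. It was no longer DE without animal 20275 (adjusted p = 0.115), 21189 (0.0891), 21866 (0.0603), 24849 (0.0756) or 26292 (0.0591). It was also lost with voomWithQualityWeights of limma (0.42, adjusted p = 0.164), with the identifier series as a covariate (0.48, adjusted p = 0.137, edgeR) and within the last series (0.52, adjusted p = 0.233). Compared to pre-treatment, neither post-treatment (log2 fold change -0.31, 95% interval -0.78 to 0.16) nor washout (0.37, -0.10 to 0.84) passed the test.

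Of the secreted proteins, SFRP4 (ENSG00000106483), which is abundant in adipose stroma, changed most in AT from pre- to post-treatment and from post-treatment to washout. It lay between 117.1 and 314.6 CPM pre-treatment (median 184.8 CPM), between 90.2 and 1186 CPM post-treatment (median 562.5 CPM) and between 85.7 and 743.9 CPM at washout (median 160.9 CPM). Post-treatment, 6 of 9 libraries were above every pre-treatment library, while those of animals 20456, 24849 and 20261 held 90.2 to 179.8 CPM. The log2 fold change post-treatment was 1.10 (95% interval 0.37 to 1.84, adjusted p = 0.0518 from edgeR), higher in 7 of 9 animals, and missed the threshold. It passed without animal 20456 or 24849. From post-treatment to washout, SFRP4 fell by 1.24 on the log2 scale (SE 0.39, adjusted p = 0.0173), in 8 of 8 animals. Within the last identifier series it was not DE (-0.85, adjusted p = 0.236). Washout and pre-treatment differed by -0.13 (95% interval -0.90 to 0.63).

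SFRP1 (ENSG00000104332) and SFRP2 (ENSG00000145423), which like SFRP4 bind Wnt ligands, fell over the same interval. SFRP1 had a median of 145.1 CPM pre-treatment (116.3 to 356.1), 215.1 CPM post-treatment (145.9 to 379.5) and 133.5 CPM at washout (76.1 to 220.5), and 5 of 8 washout libraries were below every post-treatment library. The log2 fold change of SFRP1 over this interval was -0.65 (SE 0.23 and adjusted p = 0.0287, edgeR), lower in 8 of 8 animals. That call was lost without animal 20275 (adjusted p = 0.0607), 21866 (0.0685) or 23004 (0.0594), with library size alone (0.0527) and within the last identifier series (log2 fold change -0.40, adjusted p = 0.351). SFRP2 had a median of 68.2 CPM pre-treatment (29.7 to 196.1), 108.8 CPM post-treatment (28.7 to 161.8) and 50.2 CPM at washout (7.41 to 107), and the groups overlapped widely. Its log2 fold change was -0.91 (SE 0.35, adjusted p = 0.0494), lower in 6 of 8 animals. The call of SFRP2 lay at the threshold and was lost under most other settings, for example without animal 22130, whose washout library held the lowest level (log2 fold change -0.53, adjusted p = 0.125).

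DKK3 (ENSG00000050165), a secreted protein of the Dickkopf family, went the other way from the SFRP genes in AT. It had a median of 30.1 CPM pre-treatment (21.6 to 86.2), 19.6 CPM post-treatment (10.9 to 36.2) and 39.6 CPM at washout (14.5 to 89.7). Post-treatment, 5 of 9 libraries lay below every pre-treatment library, with a log2 fold change of -0.72 that did not pass the test (95% interval -1.28 to -0.16, adjusted p = 0.0865 from edgeR). From post-treatment to washout DKK3 rose by 0.88 on the log2 scale (SE 0.31, adjusted p = 0.0304), with 5 of 8 washout libraries above every post-treatment library. The call was lost without animal 21189 (adjusted p = 0.119), 21866 (0.108) or 23004 (0.0824).

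**Figure D2:**
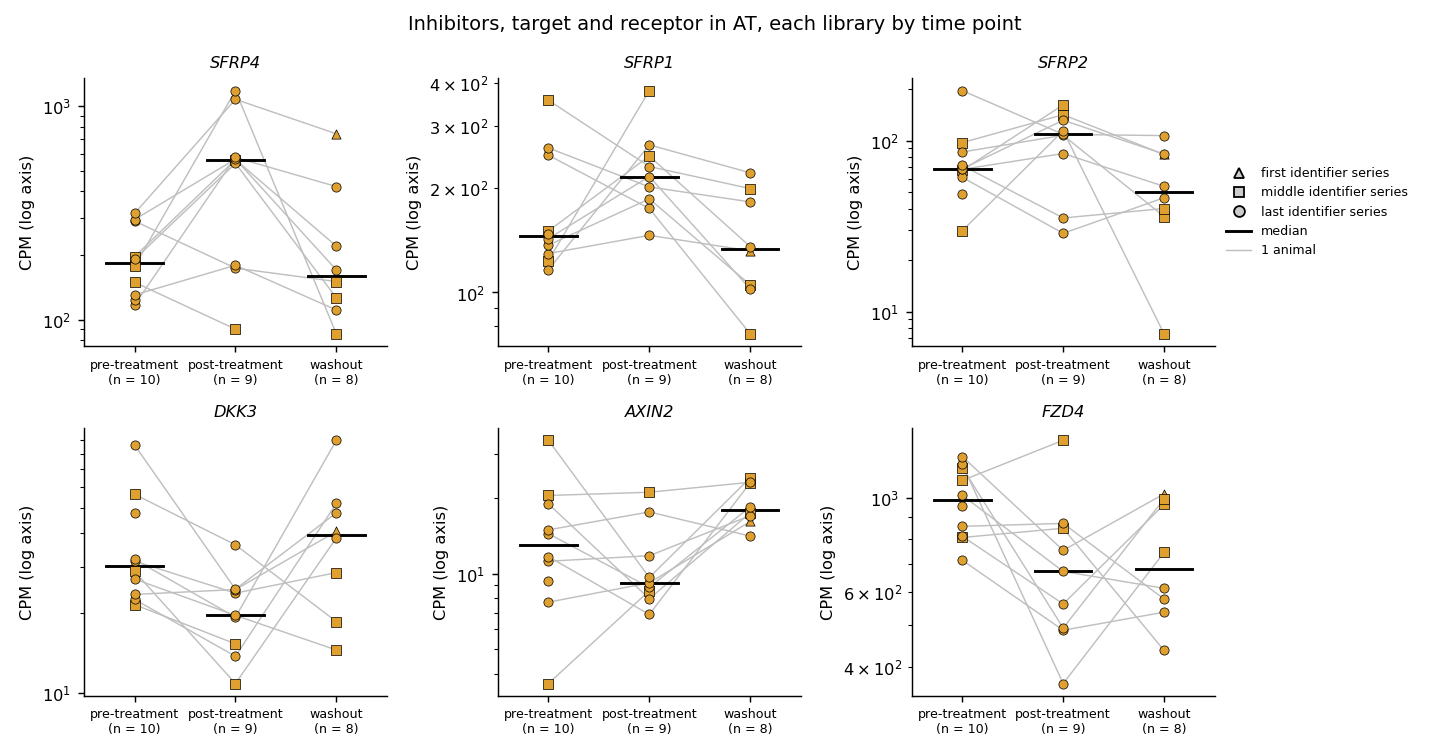
Levels of SFRP4, SFRP1, SFRP2, DKK3, AXIN2 and FZD4 in AT in CPM (log axes) in each library at the 3 time points, with grey lines joining the libraries of an animal, black bars at the median and symbols for the identifier series. The medians of the 3 SFRP genes are highest post-treatment, and those of DKK3, AXIN2 and FZD4 are lowest there.

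In AT, then, 0 of the 8 genes were DE between pre- and post-treatment, where 6.98% of all genes tested were DE and higher and 8.49% DE and lower. Before adjustment, 3 of the 8 had a p under 0.05, namely SFRP4, FZD4 and DKK3, and DESeq2 called the same 3, and voomWithQualityWeights of limma called SFRP4 and DKK3. The count was 2 without animal 20456 (FZD4 and SFRP4), 1 without animal 23004 (FZD4) and 1 without animal 24849 (SFRP4). Washout compared to post-treatment gave 2 of 8 DE and higher (AXIN2 and DKK3) and 4 of 8 DE and lower (LRP6, SFRP1, SFRP2 and SFRP4), against 17.6% and 17.8% of all genes. The count was 3 without animal 20275, 2 without animal 21866 and 3 without animal 23004. At washout compared to pre-treatment, 1 of 8 was DE, LRP6, against 12.5% of all genes higher and 7.96% lower. The 8 genes had medians of the log2 change of -0.16, -0.26 and -0.23 in these comparisons, beside 0.03, -0.0021 and -0.02 over all genes.

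Markers of other cells moved over the same interval. From post-treatment to washout, 4 of 9 progenitor and fibroblast markers and 8 of 8 macrophage markers were DE and lower in AT, the macrophage markers by a median log2 fold change of -1.79, while 2 of 4 pericyte and smooth muscle markers and 3 of 3 erythroid markers were DE and higher. The summed level of the progenitor and fibroblast markers was 21524 to 55196 CPM post-treatment and 13201 to 46395 CPM at washout, and that of the macrophage markers 830.4 to 4533 CPM and 335.5 to 1867 CPM. No marker of either list was at 0 in any AT library. Their part in the changes of LRP6 and the SFRP genes was not tested.

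**Figure D3:**
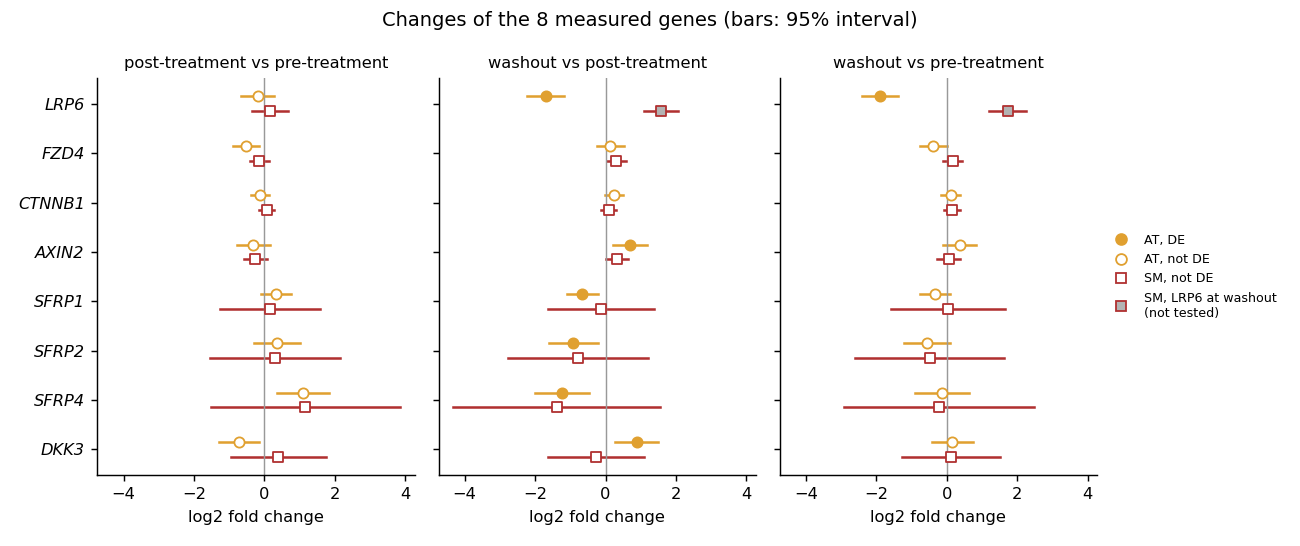
Log2 fold changes of the 8 measured genes in the 3 comparisons in AT (circles) and SM (squares), with bars for the 95% interval, filled symbols for DE genes and grey symbols for LRP6 in SM at washout, which was not tested. LRP6 lies at -1.70 in AT and 1.57 in SM from post-treatment to washout, and the SFRP and DKK3 intervals are wider in SM than in AT.

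In SM, 0 of the 8 genes were DE between pre- and post-treatment, where 0% of all genes were DE and higher and 0% DE and lower. None of the 8 had an unadjusted p under 0.05 there, and DESeq2 and voomWithQualityWeights called none. At washout, LRP6 is left out of the counts, since these are the contrasts it was picked for. Of the other 7 genes, 0 were DE at washout compared to post-treatment, where 0.182% of all genes were DE and higher and 0.00793% DE and lower, and 0 compared to pre-treatment, where 0.0634% were higher and 0% lower. Before adjustment, 1 of the 7 had a p under 0.05 in the first comparison, FZD4, and 0 in the second, and neither DESeq2 nor voomWithQualityWeights called any of them.

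The intracellular genes and FZD4 varied less between SM libraries of a time point than the SFRP genes and DKK3. CTNNB1 ranged from 121.7 to 178.0 CPM pre-treatment, from 132.3 to 239.0 CPM post-treatment and from 138.0 to 189.7 CPM at washout. FZD4 ranged from 92.6 to 143.5 CPM pre-treatment, from 65.3 to 144.3 CPM post-treatment and from 94.3 to 149.3 CPM at washout. Its log2 fold change from post-treatment to washout was 0.31 (95% interval 0.05 to 0.57, adjusted p = 0.26 from edgeR), higher in 6 of 7 animals. AXIN2 had medians of 15.6 CPM pre-treatment, 13.9 CPM post-treatment and 16.8 CPM at washout, within 9.94 to 27.5 CPM over all 21 libraries. The largest of these changes was 0.32 for AXIN2 from post-treatment to washout, with an interval of 0.01 to 0.63. Its unadjusted p was 0.0588 and its adjusted p 0.309, both from edgeR.

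The genes of the secreted proteins, in contrast, spread widely among SM libraries of 1 time point. Post-treatment, SFRP4 was between 2.10 and 6.89 CPM in animals 23004, 19832, 22130 and 20456, at 43.2 CPM in animal 24849, and between 207.6 and 429.8 CPM in animals 20275, 21189 and 21866. SFRP2 ran from 2.07 to 92.4 CPM, SFRP1 from 2.87 to 40.8 CPM and DKK3 from 1.99 to 123.7 CPM in the same 8 libraries. For each of these genes, the libraries of animals 21189 and 21866 were the highest 2. At washout, the library of animal 22130 was the highest for all 4 genes, with SFRP4 at 103.9 CPM against 1.501 to 14.5 CPM in the other 6.

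With this spread, changes of the SFRP genes and DKK3 in SM were not resolved. The log2 fold change of SFRP4 was 1.17 post-treatment compared to pre-treatment, with an interval of -1.53 to 3.86, and -1.39 from post-treatment to washout, with an interval of -4.33 to 1.55. For SFRP1, SFRP2 and DKK3, the same comparisons gave values between -0.77 and 0.40, with adjusted p-values of 0.725 or more. Within the last identifier series, 3 post-treatment libraries stood against 6 washout libraries. There SFRP4 (log2 fold change -4.23), SFRP2 (-2.41), DKK3 (-2.79) and SFRP1 (-2.02) were DE and lower at washout. Of all 12737 genes tested there, 3026 were DE in either direction. The fit compares libraries within an animal, and in that series only animals 21189 and 24849 had SM libraries at both time points. Animal 21866 had no other SM library, so that its high levels did not enter these changes.

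The libraries with high levels of the SFRP genes and DKK3 also held high levels of progenitor and fibroblast markers. That list has 9 genes, including PDGFRA, DCN and the fibrillar collagens. Their summed level ranged from 260.4 to 26309 CPM over the post-treatment SM libraries, from 537.8 to 6398 CPM pre-treatment and from 416.3 to 5640 CPM at washout. It was 26309 CPM in animal 21189, 18830 CPM in animal 21866, 9842 CPM in animal 20275 and 6098 CPM in animal 24849, and at most 652.3 CPM in the other 4 post-treatment libraries. At washout, animal 22130 had the highest sum, 5640 CPM. None of the 9 markers was at 0 in any SM library, and none was DE in SM. The part of these markers in the levels of the SFRP genes and DKK3 was not tested.

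**Figure D4:**
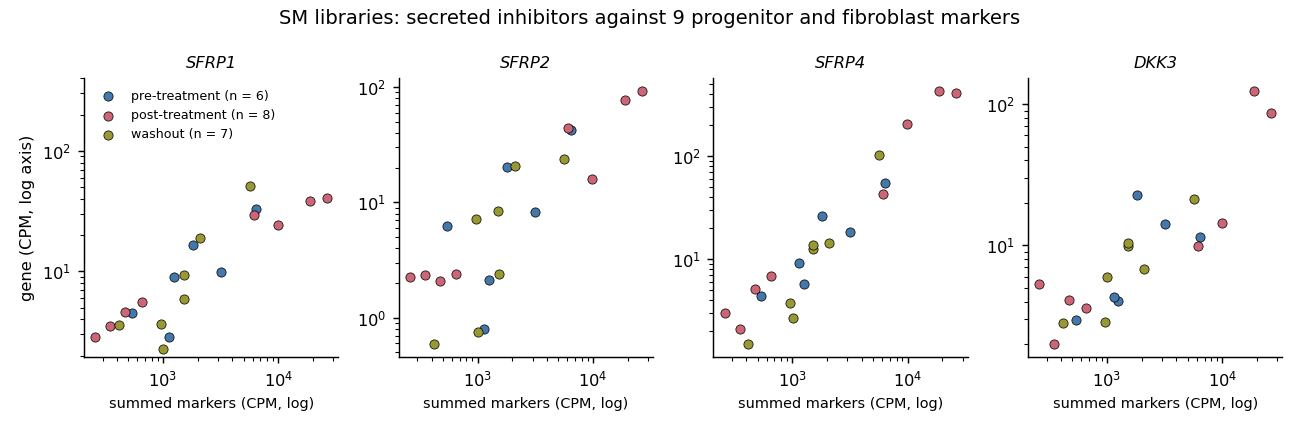
Levels of SFRP1, SFRP2, SFRP4 and DKK3 in each SM library against the summed level of 9 progenitor and fibroblast markers in the same library, both in CPM on log axes, coloured by time point. The post-treatment libraries of animals 21189 and 21866, with marker sums of 26309 and 18830 CPM, hold the highest SFRP2, SFRP4 and DKK3 levels.

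Between the tissues, 6 of the 7 genes other than LRP6 were DE pre-treatment: AXIN2 was higher in SM, and 5 were lower, in a comparison in which 36.6% of all genes were DE and higher and 41.2% DE and lower. Post-treatment, of the same 7 genes, AXIN2 was again higher and FZD4, CTNNB1 and SFRP1 were lower, beside 36.6% and 40.8% of all genes. LRP6 is again left out, since SM post-treatment libraries entered its choice. SFRP1 had a median of 113.2 CPM in AT and 12.7 CPM in SM pre-treatment on the common scale (log2 fold change -3.11, SE 0.58, adjusted p = 1.04e-05 from edgeR), and FZD4 768.9 and 131.9 CPM (-2.30, SE 0.21, adjusted p = 7.09e-12). SFRP4 (-2.70), SFRP2 (-1.86) and CTNNB1 (-0.68) were also lower in SM pre-treatment. AXIN2 had medians of 10.2 CPM in AT and 21.4 CPM in SM (log2 fold change 0.92, SE 0.27, adjusted p = 0.00261), a difference that was 0.21 and no longer DE when the libraries were scaled by their size alone. DKK3 did not pass the test at either time point.

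The change over time was also compared between the tissues. For the change from pre- to post-treatment, 0 of the 8 genes differed between SM and AT, where 0.073% of all genes were DE with the higher change in SM and 0% with the lower; voomWithQualityWeights also called none of the 8. For the change from pre-treatment to washout, 0 of the 7 genes other than LRP6 were DE, beside 8.02% and 8.85% of all genes, and voomWithQualityWeights called none of the 7. FZD4 had an unadjusted p under 0.05 there, with a difference of 0.60 (adjusted p = 0.137, edgeR), as had DKK3 for the change to post-treatment (1.90, adjusted p = 0.407).

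To see the 8 genes among the rest of the pathway, a further 91 Wnt pathway genes were grouped by role, of which 83 were measured, 66 tested in AT and 67 in SM. In AT post-treatment compared to pre-treatment, 5 were DE and higher and 10 DE and lower, that is 7.58% and 15.2%, beside 6.98% and 8.49% of all genes, and the median change was -0.05 on the log2 scale. The count of 15 was 6 without animal 20275, 7 without animal 21189 and 6 without animal 22130. Between post-treatment and washout, 9 were DE in each direction, 13.6%, beside 17.6% of all genes higher and 17.8% lower. At washout compared to pre-treatment, 6 were DE and higher and 4 DE and lower, 9.09% and 6.06%, beside 12.5% and 7.96%. In SM, 0 of 67 were DE post-treatment, with 3 at an unadjusted p under 0.05 and 0 called by DESeq2. At washout, 1 was DE and higher in each comparison, 1.49%, beside 0.182% of all genes compared to post-treatment and 0.0634% compared to pre-treatment.

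Among the receptors of the wider list, FZD7, a Frizzled, and ROR1 and ROR2, receptors of non-canonical Wnt signals, rose in AT post-treatment, 3 of the 10 tested, beside 6.98% of all genes. In the same comparison 3 of 9 progenitor and fibroblast markers and 2 of 8 macrophage markers were DE and higher; their summed levels went from 15992 to 37885 CPM pre-treatment to 21524 to 55196 CPM post-treatment, and from 541.2 to 2013 CPM to 830.4 to 4533 CPM. Their part in the result was not tested. ROR2 ran from 3.40 to 9.57 CPM pre-treatment (median 4.76 CPM), from 5.02 to 12.4 CPM post-treatment (median 10.2 CPM) and from 3.36 to 9.07 CPM at washout (median 4.83 CPM). Its log2 fold change was 0.83 (SE 0.17 and adjusted p = 0.00503, edgeR) post-treatment, higher in 8 of 9 animals, and -0.85 (SE 0.17, adjusted p = 0.00110) from post-treatment to washout, lower in 8 of 8. Within the last identifier series neither ROR2 value passed the test (adjusted p = 0.0648 and 0.193). For FZD7 the values were 0.72 and -1.05, and ROR1 rose by 0.68. The post-treatment calls of FZD7 and ROR1 were lost without animal 20275 or 21189, that of FZD7 also without 22130, and both within the last series (adjusted p = 0.0572 and 0.109, edgeR). FZD1, a further Frizzled receptor, was DE and lower at washout compared to pre-treatment, by -0.60 (adjusted p = 0.0480), and 7 of the 10 fits that left out an animal lost this call.

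The secreted inhibitors FRZB, a relative of the SFRP proteins, and DKK1, which binds LRP6, fell in AT post-treatment, as 2 of the 5 tested in that role, beside 8.49% of all genes. FRZB had medians of 787 CPM pre-treatment, 203 CPM post-treatment and 809 CPM at washout, with log2 fold changes of -1.82 (SE 0.48 and adjusted p = 0.0203, edgeR) post-treatment and 1.77 (SE 0.51, adjusted p = 0.0112) from post-treatment to washout. The first call was lost without animal 21189 or 22130. DKK1 had medians of 12.1, 4.45 and 12.5 CPM, with log2 fold changes of -1.26 (adjusted p = 0.00416), lower in 9 of 9 animals, and 1.14 (adjusted p = 0.00213), higher in 7 of 8. Both thus changed in the direction opposite to SFRP1, SFRP2 and SFRP4 from post-treatment to washout. LGR5, a receptor for the R-spondins that raise Wnt signalling, had a log2 fold change of -1.58 post-treatment, at an adjusted p of 0.0484 from edgeR and a mean of no more than 1.87 CPM at any time point in AT, and 7 of the 10 fits that left out an animal lost this call. The pathway target NKD1 rose by 1.67 (adjusted p = 0.00191) from post-treatment to washout. It was the 1 DE gene of the 7 targets tested, beside 17.6% of all genes DE and higher. The median log2 change of the 7 targets was -0.20.

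Downstream of the receptors, DVL3, a Dishevelled protein that relays the signal, rose in AT at washout, from 64.5 to 89.2 CPM pre-treatment to 102.7 to 146.8 CPM, with no overlap, as for 2.27% of all genes. Its log2 fold change was 0.74 (SE 0.08 and adjusted p = 3.92e-06, edgeR), higher in 8 of 8 animals. GSK3B, the kinase that marks β-catenin, went from a median of 37.4 CPM pre-treatment to 21.8 CPM at washout (log2 fold change -0.72, SE 0.10, adjusted p = 5.37e-05), lower in 8 of 8 animals. Of the 12 destruction complex genes, 4 were DE and lower from post-treatment to washout, beside 17.8% of all genes. At washout compared to pre-treatment, the co-repressor TLE2 (0.56) and the target CCN4 (WISP1 in the table, 1.09) were DE and higher. CCN4 was the 1 DE gene of the 7 targets tested, whose median log2 change was 0.04. Of the 10 transcription genes tested, 2 were DE and higher and 1 DE and lower, beside 12.5% and 7.96% of all genes.

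PYGO1, which binds the β-catenin complex at chromatin, was the 1 gene of the wider list that was DE in SM. It ran from 4.95 to 9.63 CPM pre-treatment, from 3.24 to 14.0 CPM post-treatment and from 14.98 to 37.8 CPM at washout, so that all 7 washout libraries were above all earlier ones. Of all SM genes, 0.705% did not overlap with post-treatment and 1.51% did not overlap with pre-treatment at washout. The log2 fold change was 1.48 (SE 0.27 and adjusted p = 0.0354, edgeR) compared to post-treatment and 1.68 (SE 0.29, adjusted p = 0.0476) compared to pre-treatment. In AT, PYGO1 fell, with a median of 3.70 CPM pre-treatment, 2.79 CPM post-treatment and 1.33 CPM at washout. There the log2 fold change was -1.18 (adjusted p = 3.42e-04) compared to post-treatment and -1.24 (adjusted p = 2.45e-04) compared to pre-treatment, lower in 8 of 8 animals in both. PYGO1 thus rose in SM and fell in AT at washout, as LRP6 did. It is among the 7 genes other than LRP6 that were DE and higher in SM at washout than pre-treatment. All 7 were DE and lower in AT. Both SM calls of PYGO1 were lost without animal 19832 (adjusted p = 0.0965 and 0.290), and likewise without animals 20275, 20456, 21189, 22130 or 24849.

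**Figure D5:**
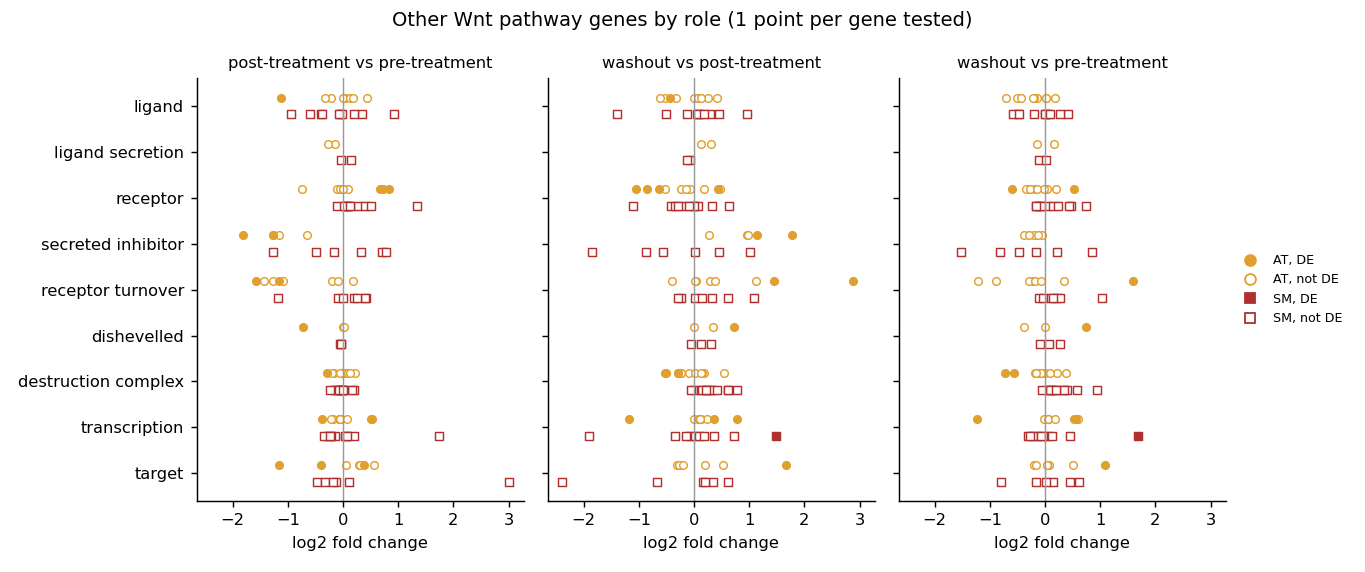
Log2 fold changes of the wider Wnt list by role in the 3 comparisons, 1 point per gene tested, for AT (circles) and SM (squares), with filled symbols for DE genes. In AT 15, 18 and 10 genes are DE in the 3 comparisons, and in SM 0, 1 and 1, the last being PYGO1 in both.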

How the data were processed

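RNA was extracted from snap-frozen biopsies, and stranded poly(A) libraries were sequenced. STAR was the authors' aligner and MacaM their genome, and the deposited values are whole-number counts per gene that were not normalized; versions are not given in the sources used here. Of 51 labelled samples, 3 of SM are not analysed here, since the table holds no column for them. Of 16103 entries, 70 that repeated a gene were dropped. Genes with at least 0.5 CPM in 10% of a tissue's libraries were tested with edgeR 4.0.16 (R 4.3.3): TMM normalization and robust quasi-likelihood tests of time point and animal within a tissue, and of 6 groups and animal over both tissues, with Benjamini-Hochberg adjustment over all genes. Standard errors came from the F statistic. The intervals called 95% are 1.96 SE, which is narrower than the F test with its few degrees of freedom would give. CPM used TMM-scaled library sizes, and log2 CPM a prior count of 2. The model was also run on simulated counts with no differences between animals and the same spread in both tissues. That run does not test the pairing or the spread of the SM libraries. Deviations from the time point means correlated at a median r of 0.352 within animals and -0.0354 between animals in AT, and 0.279 and -0.0464 in SM, where the labels give the animal. The wider Wnt genes named are the 3 largest DE rises and falls with a mean of at least 1 CPM in each AT comparison and every DE gene in SM. The 10 genes, the wider list and the markers were chosen with earlier results of these data known. No sequences are shown, because no sequence reference was used here. Alternatives were limma 3.58.1, DESeq2 1.42.0, other scalings, filters and covariates, and each animal left out. Figures used matplotlib.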

Additional observations from a re-analysis of the deposited data

Results flagged for a closer look

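In 8 of 48 groups of libraries, for the 8 genes at 6 tissue and time point combinations, the highest library stood apart from the next by more than Dixon's limit. That limit flags about 1 in 20 groups of normally distributed values. The CPM values were not tested for this, so that the 8 flags cannot be set against that rate. In AT these were FZD4 post-treatment in animal 20456 (1367 CPM, next 870.3), SFRP2 pre-treatment in animal 20261 (196.1 CPM, next 97.4), CTNNB1 at washout in animal 24849 (667.8 CPM, next 480.5) and LRP6 at washout in animal 26292 (67.8 CPM, next 32.4). In SM they were CTNNB1 post-treatment in animal 21189 (239.0 CPM, next 158.1) and, all in the washout library of animal 22130, DKK3 (21.5 CPM, next 10.3), SFRP1 (50.8 CPM, next 19.1) and SFRP4 (103.9 CPM, next 14.5).

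The change from pre-treatment to washout differed between SM and AT for LRP6, by 3.70 on the log2 scale (a description). By edgeR's test of the difference over all genes, it also differed for PYGO1 (2.99, SE 0.35), GSK3B (1.73, SE 0.24), FZD1 (1.59, SE 0.48) and DVL3 (-0.80, SE 0.13). The difference of FZD1 was no longer DE with voomWithQualityWeights (adjusted p = 0.0769) or with library size alone (adjusted p = 0.0641, edgeR).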

How the results depend on the processing

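Of the alternative values of single genes, 1349 kept their direction and their side of the threshold, 117 lost a call, 29 gained one and 50 changed sign. Of the counts of DE genes, 219 stayed within 1.5 times the reported count and 61 did not. LRP6 in AT stayed DE at washout in both comparisons under every alternative. Where a cause is not given, it was not tested. With 6 to 10 libraries a group and wide spreads of the SFRP genes and DKK3 in SM, small changes could not be resolved.

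Among the 8 genes in AT, the count for post-treatment against pre-treatment, reported as 0, was 2 with voomWithQualityWeights, 3 with DESeq2, 1 with library size alone, 3 with the identifier series as a covariate, 1 with only the 2 time points compared, and 0 to 2 with an animal left out. For washout against post-treatment, reported as 6, it was 2 in the last series and 2 to 6 with an animal left out. For washout against pre-treatment, reported as 1, it was 2 with voomWithQualityWeights and with the series covariate and 3 with only the 2 time points compared. In SM, the washout counts include LRP6, as a description with no test, and are then 1 each. Washout against post-treatment gave 0 with only the 2 time points compared, 5 in the last series and 0 to 1 with an animal left out, and washout against pre-treatment gave 0 in the last series and 0 to 1 with an animal left out. Over all genes, 3026 of 12737 were DE from post-treatment to washout in the last series of SM. Only animals 21189 and 24849 had SM libraries of that series at both time points.

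For the wider list in AT, the 15 genes of post-treatment against pre-treatment became 9 without the pre-treatment library of animal 20275, 6 in the last series and 6 to 17 with an animal left out. The last series gave 10 in place of 18 for washout against post-treatment and 6 in place of 10 for washout against pre-treatment. Over all 13393 genes tested in the last series of AT, it called 810 post-treatment, and at washout 2224 against post-treatment and 1125 against pre-treatment. In SM, the 1 gene of washout against post-treatment became 3 with DESeq2, 0 with library size alone or only the 2 time points compared, 12 with the series covariate, 20 in the last series and 0 to 1 with an animal left out. Over all genes this comparison called 24 of 12617, then 359 with DESeq2, 2650 with the series covariate and 3026 of 12737 in the last series. For washout against pre-treatment the 1 gene became 4 with voomWithQualityWeights, 2 with DESeq2, 0 with the earlier quasi-likelihood method, 3 with the series covariate, 0 in the last series and 0 to 1 with an animal left out. Over all 12617 genes that comparison called 8, then 674 with voomWithQualityWeights, 179 with DESeq2 and 1355 with the series covariate.

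In the fit with no replicate block, which ignores that libraries of an animal are paired, the AT post-treatment counts were 1 for the 8 genes and 7 for the wider list, and the SM count of the wider list for washout against post-treatment was 4. Against pre-treatment at washout, SFRP4 changed sign to 0.35 in AT and 0.13 in SM and DKK3 to -0.22 in SM, on the log2 scale. Without the block, SFRP4 in AT was no longer DE from post-treatment to washout (adjusted p = 0.0556, edgeR), nor was FRZB in either comparison.

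The other changes of sign were of log2 fold changes close to 0 or with wide intervals. In AT from post-treatment to washout, FZD4 was -0.088 with voomWithQualityWeights, -0.071 with the series covariate and -0.067 in the last series. In the last series of AT, SFRP2 was -0.23 post-treatment, and at washout against pre-treatment CTNNB1 was -0.0078 and SFRP4 0.14. In SM post-treatment, voomWithQualityWeights gave -0.013 for CTNNB1, -0.33 for SFRP1, -0.18 for SFRP2, -0.58 for SFRP4 and -0.79 for DKK3, and the last series gave -0.0952 for SFRP2. In SM from post-treatment to washout, DKK3 was 0.27 with voomWithQualityWeights, and CTNNB1 was -0.042 with library size alone and -0.19 in the last series. In SM at washout against pre-treatment, SFRP1 was -0.62 with voomWithQualityWeights, -0.13 with the series covariate, -0.41 with only the 2 time points compared and -1.19 in the last series. DKK3 there was -0.52 with voomWithQualityWeights and -0.25 with only the 2 time points compared, and AXIN2 was -0.025 with library size alone and -0.044 in the last series.

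With an animal left out, the genes that changed sign in AT at washout against pre-treatment ranged from -0.080 to 0.36 (DKK3), from -0.0021 to 0.16 (CTNNB1) and from -0.42 to 0.021 (SFRP4). In SM post-treatment the ranges were -0.028 to 0.39 for LRP6, -0.22 to 0.031 for FZD4, -0.14 to 0.47 for SFRP1, -0.28 to 0.76 for SFRP2 and -0.026 to 0.84 for DKK3. The ranges were -0.94 to 0.42 for SFRP1 and -0.88 to 0.33 for DKK3 from post-treatment to washout. At washout against pre-treatment they were -0.85 to 0.58 for SFRP1, -1.55 to 0.13 for SFRP2, -1.35 to 0.65 for SFRP4 and -0.46 to 0.54 for DKK3. The alternatives chosen after seeing the data were the fit of the last series alone, and the AT fit without the washout library of animal 23004, which kept LRP6 DE (-1.54 against post-treatment) but not DKK3 or SFRP2.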
